A study of Homo sapiens with 4 samples.

Results

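The ATP-binding cassette (ABC) transporter genes were examined in lung adenocarcinoma (LAD) cells with and without activated AKT1. Members were the protein-coding genes whose GENCODE v44 symbol is ABC followed by a letter from A to G and a number. All 45 such genes were found among the 60558 gene identifiers of the files, with 12 in the ABCA subfamily, 9 in ABCB, 11 in ABCC, 4 in ABCD, 1 in ABCE, 3 in ABCF and 5 in ABCG. The study sequenced RNA from a pair of human LAD lines, A549 and HCC827, to find transcripts that respond to activated AKT. Each line, cultured in DMEM with fetal bovine serum, had been transduced either with myr-AKT1, a constitutively active, myristoylated AKT1 labelled AKT1 in the sample titles, or with the empty vector, labelled VECTOR. There was 1 library per condition and line, so 4 libraries in all, and no replicate within a line. A549 is known for a deleted CDKN2A locus and HCC827 for an amplified, mutant EGFR, so HCC827-vector cells are themselves not free of signalling upstream of AKT.

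ABC transporters use the energy of ATP hydrolysis to move substrates across membranes. ABCA proteins mainly carry lipids, ABCB and ABCC proteins carry peptides, bile salts, conjugates and drugs, ABCD proteins bring fatty acids into peroxisomes, and ABCG proteins export sterols or drugs. ABCE and ABCF proteins have the ATP-binding domains but no membrane domains, and act on ribosomes and translation. In epithelia and tumours the family is best known for drug efflux, through P-glycoprotein (ABCB1), the multidrug resistance proteins (ABCC members) and BCRP (ABCG2).

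Promoter stretches of 5 members are shown because their mRNAs marked the main patterns in these data: ABCA1 and ABCA7 were higher with myr-AKT1 in both lines, ABCF2 was lower in both, and ABCA13 and ABCB1 gave the extreme differences in HCC827. Each stretch lies upstream of the annotated start, is written 5′ to 3′ on the strand of the gene, and comes from RefSeq (GRCh38.p14). In the ABCA1 stretch, capitals mark an E-box and, on the opposite strand, a repeat of the type bound by liver X receptors (LXRs). It also holds an SP1 box, and no other motif searched for (named further on) was found in it. No motif searched was present in the other stretches. The window of ABCE1, also lower in both lines, is not shown and did hold matches to motifs searched.
ABCA1 (chr9:104928156-104928405, minus strand): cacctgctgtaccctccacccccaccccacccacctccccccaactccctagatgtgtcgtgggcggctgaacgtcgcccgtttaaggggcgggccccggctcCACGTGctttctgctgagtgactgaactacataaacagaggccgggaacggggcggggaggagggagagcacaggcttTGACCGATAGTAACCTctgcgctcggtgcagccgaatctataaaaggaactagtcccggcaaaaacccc
ABCA7 (chr19:1039857-1039996, plus strand): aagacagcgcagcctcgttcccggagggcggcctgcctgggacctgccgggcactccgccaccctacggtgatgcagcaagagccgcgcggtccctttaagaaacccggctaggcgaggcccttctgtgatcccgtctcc
ABCF2 (chr7:151227206-151227455, minus strand): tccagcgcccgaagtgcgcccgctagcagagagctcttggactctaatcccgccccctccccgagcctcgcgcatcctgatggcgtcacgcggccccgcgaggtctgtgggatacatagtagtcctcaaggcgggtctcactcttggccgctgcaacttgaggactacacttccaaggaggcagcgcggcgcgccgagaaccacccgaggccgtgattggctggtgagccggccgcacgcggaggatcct
ABCA13 (chr7:48171208-48171457, plus strand): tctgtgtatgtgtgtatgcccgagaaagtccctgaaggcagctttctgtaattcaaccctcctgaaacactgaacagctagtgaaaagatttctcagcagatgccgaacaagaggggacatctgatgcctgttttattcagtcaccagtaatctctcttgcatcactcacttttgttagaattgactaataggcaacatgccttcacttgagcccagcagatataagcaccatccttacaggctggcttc
ABCB1 (chr7:87713324-87713545, minus strand): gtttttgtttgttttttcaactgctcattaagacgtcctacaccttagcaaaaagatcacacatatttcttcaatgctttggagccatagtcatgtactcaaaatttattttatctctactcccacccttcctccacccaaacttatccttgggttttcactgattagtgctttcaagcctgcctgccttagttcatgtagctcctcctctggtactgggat

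The A549 libraries held 25190760 (myr-AKT1) and 33530317 (vector) recovered reads, and the HCC827 libraries 16322183 (myr-AKT1) and 27312465 (vector). The normalized count of AKT1, the targeted gene, was higher with myr-AKT1 in A549 (6297 against 4243) and in HCC827 (4805 against 2175). CDKN2A had 0 reads in both A549 libraries and 2055 and 4344 in the HCC827 libraries. EGFR, the other known feature of the lines, had 8454 against 7499.6 normalized counts in A549 and 68423 against 153714 in HCC827, the latter a log2 fold change of -1.17. Of 6 epithelial markers, CDH1 (1.39) and KRT19 (2.65) were past 1 upward on the log2 scale in A549 and none downward, and KRT8 (-1.81) and KRT18 (-1.75) were past 1 downward in HCC827 and none upward, with CDH1 at 0.31 there. All 5 fibroblast markers together held 1078 reads in A549-myr-AKT1 against 360 in A549-vector and 146 against 65 in HCC827. COL1A1 led them except in A549-vector, where THY1 had 217 reads and COL1A1 88. The 3 endothelial markers held 120 against 15 reads in A549 and 110 against 96 in HCC827, the 4 leukocyte markers held 26 against 3 and 14 against 24, and CD3E was at 0 in all libraries. These reads are not corrected for depth. In normalized counts the HCC827 sums were 138 against 76.3 for the endothelial and 17.6 against 19.1 for the leukocyte markers. The part of these marker differences in the results on ABC genes was not tested. Differences between bulk libraries cannot tell more RNA per cell from more cells that carry it.

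Comparisons between genes use RPKM, computed here from the recovered reads, the length of the exons and the total reads of the library. Exporters of organic anions and conjugates were among the most abundant members. ABCC3 (MRP3), an exporter of glucuronides and bile salts, reached 146 RPKM in A549-myr-AKT1 and 64.7 in A549-vector. ABCC2 (MRP2), an apical exporter of conjugates, reached 101 and 118 RPKM in those libraries. In HCC827, the levels were 34.1 RPKM for ABCC3 and 20.7 for ABCC2 with myr-AKT1, and 33.8 and 36.6 with vector. Both vector libraries thus had ABCC2 as the most abundant member and both myr-AKT1 libraries had ABCC3. The 11 drug efflux members listed for this work (ABCB1, ABCC1 to ABCC6, ABCC10 to ABCC12 and ABCG2) summed to 72.5% (myr-AKT1) and 65.2% (vector) of all member RPKM in A549, and to 38.9% and 36.5% in HCC827. At the other end, ABCB11, the bile salt export pump of hepatocytes, and ABCG8, a sterol exporter of liver and gut, had 0 reads in all 4 libraries. A count of 0 allows up to 3 reads, which for ABCB11 is 0.0154 RPKM in A549-myr-AKT1 and 0.0238 in HCC827-myr-AKT1. In all, 22 members were over 1 RPKM in every library and 17 were at or under 1 RPKM in every library.

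The vector libraries differed between the lines before any effect of AKT1 is considered. Values of the lines were normalized separately by the authors, so RPKM was used for this comparison, with a 95% Clopper-Pearson counting interval on the ratio. ABCA12, a lipid transporter of keratinocytes and lung epithelium, was 9.45-fold higher in HCC827-vector than in A549-vector (25.6 against 2.71 RPKM; log2 interval 3.14 to 3.34), and ABCA1 was 3.42-fold higher. ABCA3, the surfactant lipid transporter of alveolar type II cells, was 6.37-fold higher in A549-vector (4.75 against 0.746 RPKM). The drug exporters ABCG2, ABCC1 and ABCC2 were also higher in A549-vector, by 5.04-fold, 4.84-fold and 3.22-fold. ABCC8, the sulfonylurea receptor subunit, had 163 reads in A549-vector and 0 in HCC827-vector, at least 44.3-fold higher in A549 when 0 is set to the floor of 3 reads. ABCG1, a cholesterol exporter, had 387 reads in A549-vector and 1 in HCC827-vector. ABCB1 was at 0.511 RPKM in A549-vector and 0.633 in HCC827-vector, and the interval of the log2 ratio of HCC827 over A549 included 0 (-0.08 to 0.70).

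The main comparison was myr-AKT1 against vector within each line, on the normalized counts of that line. A gene entered it with at least 20 recovered reads summed over the pair, and was counted as higher or lower when the log2 fold change passed 1 in size. With 1 library per condition there is no p-value within a line, and the 95% intervals given cover counting error only. In A549, 37 members entered, of which 13 were higher, against a background of 14.7% of all genes tested, and 1 was lower, against a background of 10.2%. The median log2 fold change was 0.39 over these members and -0.04 over all 18819 genes tested. In HCC827, 31 members entered, of which 5 were higher and 2 were lower, against backgrounds of 13.5% and 13.1%. There the medians were -0.07 for members and -0.05 for all 17470 genes tested. The share of higher members was thus above the background in A549 and close to it in HCC827. A member or any other gene can enter through the library in which it is high. With at least 100 reads, also summed over the pair, the higher members were 10 of 31 in A549 and 3 of 28 in HCC827. That filter does not remove this limit, and the share of all genes under it was not computed. The other 6 of the 45, ABCA9, ABCB11, ABCC12, ABCD2, ABCG5 and ABCG8, were under the filter in both lines.

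**Figure D1:**
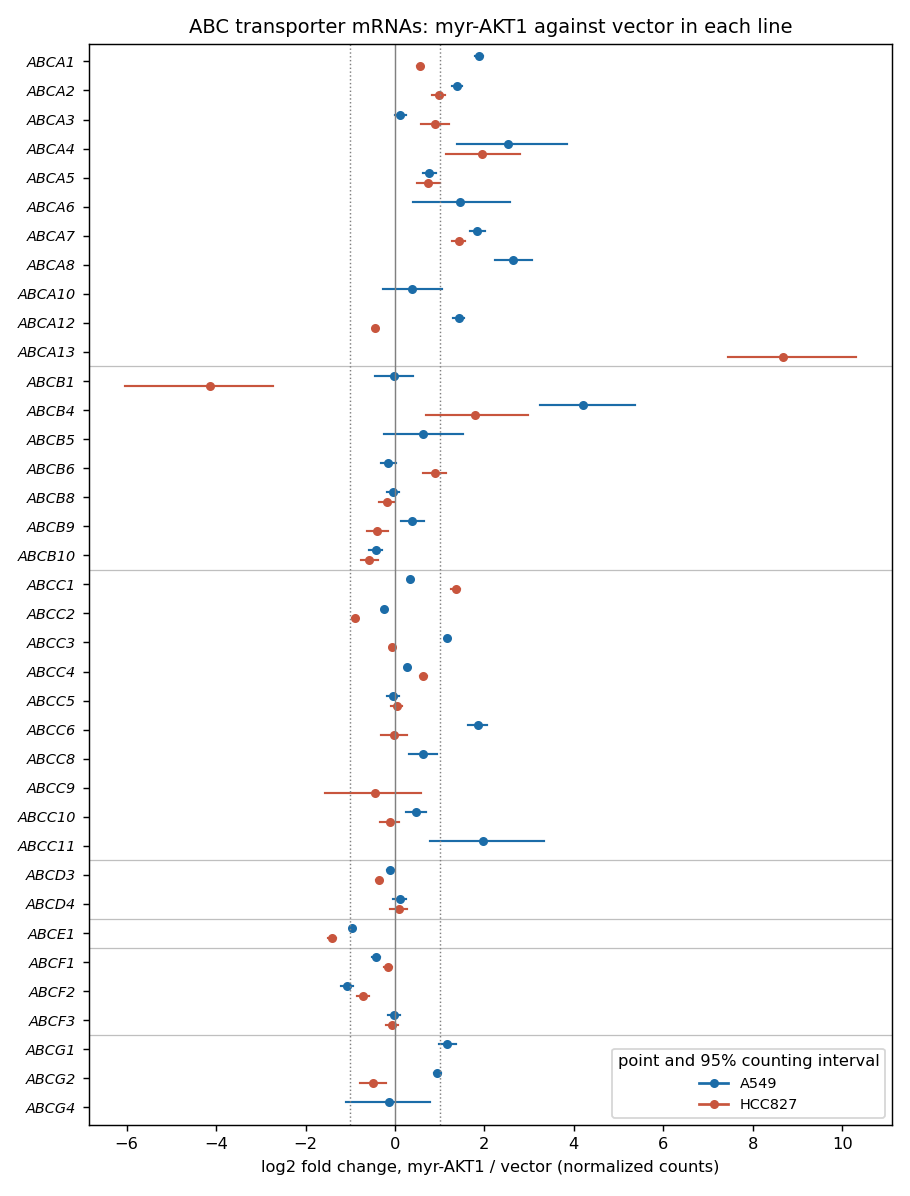
Log2 fold change of the normalized count, myr-AKT1 over vector, for the members shown, each past the read filter in A549 (blue) or HCC827 (red), grouped by subfamily, with points for the ratio and bars for the 95% counting interval (1 library per condition). In A549 all 10 measured ABCA members lie to the right of 0, and ABCA13 and ABCB1 stand at the extremes in HCC827, at 8.68 and -4.13.

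The ABCA lipid transporters were mostly higher with myr-AKT1. In A549, 10 of the 12 ABCA genes were measured, all 10 with a log2 fold change above 0, against 47.8% of all genes. Their median was 1.44 and 7 passed 1 upward. In HCC827, 8 were measured, 7 of them above 0 against 47.3% of all genes, with a median of 0.94 and 3 past 1. ABCA transcripts are long, and protein-coding genes with over 8 kb of exon had medians of 0.00 in A549 and -0.04 in HCC827. Members of all subfamilies with over 8 kb had medians of 0.70 and 0.32, and those with 5 to 8 kb had -0.06 and -0.37. The part of transcript length in these values was not tested.

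ABCA1 exports cholesterol and phospholipid to apolipoprotein A-I. Its normalized count was 4654 in A549-myr-AKT1 and 1266 in A549-vector, and 4716 with myr-AKT1 and 3209.9 with vector in HCC827. In RPKM, which can be set across the lines, the levels were 14.2 and 3.81 in A549 and 20.2 and 13.0 in HCC827, so the vector library of A549 was the low one. On the log2 scale the difference was 1.88 (1.79 to 1.97) in A549 and 0.56 (0.49 to 0.62) in HCC827.

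ABCA7, a phospholipid transporter close in sequence to ABCA1 and known as a risk gene in Alzheimer disease, had 1166 normalized counts in A549-myr-AKT1 and 325 in A549-vector, and 1330.0 and 495 in the HCC827 libraries. In RPKM, both myr-AKT1 libraries (4.21 in A549 and 6.75 in HCC827) were above both vector libraries (1.16 and 2.38). The log2 fold change was 1.84 (1.67 to 2.02) in A549 and 1.43 (1.28 to 1.57) in HCC827. ABCA2, an endolysosomal sterol and lipid transporter, had 2222 against 849 normalized counts in A549 and 1106 against 562 in HCC827, for log2 fold changes of 1.39 (1.28 to 1.501) and 0.98 (0.83 to 1.12). ABCA5, another endolysosomal member, was at 0.77 and 0.74 on the log2 scale.

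ABCA12 went in opposite directions. It had 2047 normalized counts in A549-myr-AKT1 against 764 in A549-vector, and 3941 in HCC827-myr-AKT1 against 5350.1 in HCC827-vector. The log2 fold change was 1.42 (1.30 to 1.54) in A549 and -0.44 (-0.50 to -0.38) in HCC827, the line in which the vector level was already high.

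Other ABCA members were measured mainly in 1 of the lines. ABCA8, a transporter linked to cholesterol and sphingolipid export, had 322 normalized counts in A549-myr-AKT1 and 51.5 in A549-vector, a log2 fold change of 2.64 (2.23 to 3.07), but only 4 and 0 reads in HCC827. ABCA13, a very large ABCA protein, had 0 and 1 reads in A549. In HCC827 it had 1297 reads with myr-AKT1 (1632 normalized counts) and 5 with vector (3.97). The ratio was 8.68 on the log2 scale (7.46 to 10.3), the highest value computed among all genes tested in HCC827. Ratios against fewer than 3 reads were computed with the floor of 3 reads, so they are lower bounds in this ranking. ABCA3 was at 0.12 (0.00 to 0.24) in A549 and 0.90 (0.58 to 1.21) in HCC827. ABCA4, the retinal lipid importer, was past 1 in both lines, but with at most 46 reads in any library.

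**Figure D2:**
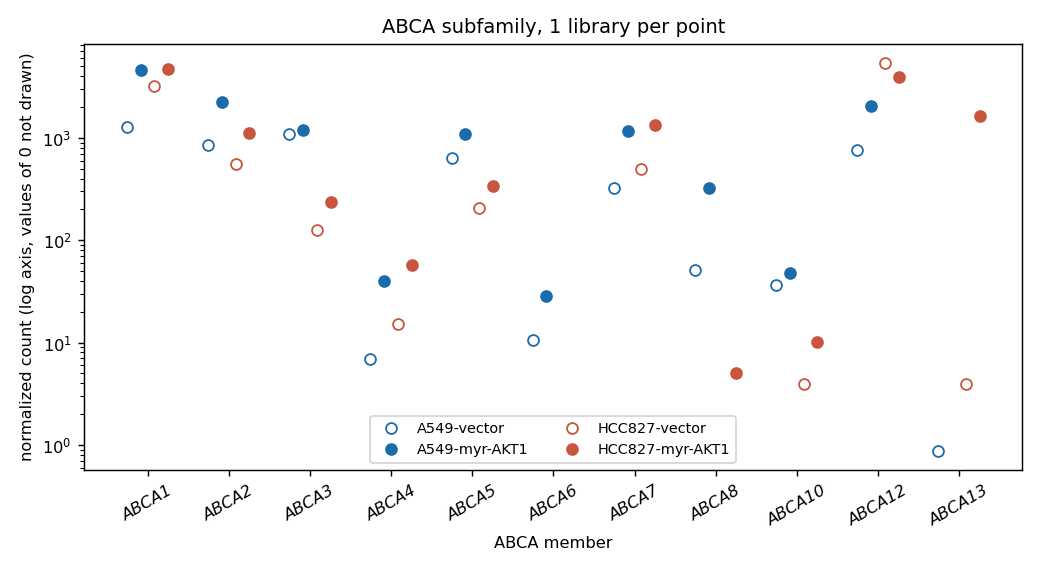
Normalized counts (log axis) of the ABCA members with at least 20 reads over the 4 libraries, with A549 in blue and HCC827 in red, open circles for vector and filled circles for myr-AKT1, 1 library per point and values of 0 not drawn. The lines were normalized separately by the authors, and within a line the filled circle lies above the open one except for ABCA12 in HCC827 and ABCA13 in A549.

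ABCA5, ABCA6, ABCA8, ABCA9 and ABCA10 lie side by side on chromosome 17, with gaps of at most 19.1 kb and an overlap of ABCA10 with ABCA5. They did not share a level. ABCA5 reached 2.84 RPKM in A549-myr-AKT1 and ABCA8 reached 0.992, while ABCA6, ABCA9 and ABCA10 stayed at or below 0.198 RPKM in all libraries. Within this cluster the log2 fold change in A549 ran from 0.39 (-0.26 to 1.04) for ABCA10 to 2.64 for ABCA8.

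ABCB members showed no common direction. Their median log2 fold change was -0.03 over 8 measured members in A549 and -0.39 over 7 in HCC827. ABCB1 (P-glycoprotein, MDR1), the classic multidrug exporter, had 95.05 normalized counts in A549-myr-AKT1 and 96.1 in A549-vector, and 5.03 with myr-AKT1 and 88.2 with vector in HCC827. Only the HCC827-myr-AKT1 library was low, with 4 reads against 111 in its vector library. The log2 fold change was -0.02 (-0.44 to 0.41) in A549, a sign that turns with the scaling, and -4.13 (-6.03 to -2.73) in HCC827, a 17.5-fold lower count.

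ABCB4 (MDR3), the phosphatidylcholine floppase that lies 22.6 kb from ABCB1 on chromosome 7 and resembles it closely in sequence, was higher in both lines. It had 145 normalized counts in A549-myr-AKT1 and 7.86 in A549-vector, a log2 fold change of 4.21 (3.24 to 5.37). In HCC827 the counts were 30.2 and 8.74, which gives a log2 fold change of 1.79 (0.70 to 2.97) that rests on 24 and 11 reads. How reads that match both genes were assigned is not given in the sources used here.

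The mitochondrial member ABCB10, which serves heme metabolism, was lower in both lines by less than the threshold, at -0.43 (-0.58 to -0.29) in A549 and -0.58 (-0.77 to -0.39) in HCC827. ABCB8, also mitochondrial, was at -0.04 and -0.18. ABCB6 was at -0.15 (-0.32 to 0.02) in A549 and 0.89 (0.63 to 1.15) in HCC827, but shares 54.6% of its exon bases with a read-through gene. ABCB9, a lysosomal peptide transporter, had 284 against 217 normalized counts in A549 and 284 against 374 in HCC827, for log2 fold changes of 0.39 (0.13 to 0.65) and -0.39 (-0.63 to -0.16). Its exons overlap those of genes on the other strand, and whether the counting used strand is not given.

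Among the ABCC members, 3 of 9 measured in A549 and 1 of 8 in HCC827 were past 1 upward, and none was past 1 downward in either line. The backgrounds were 14.7% upward and 10.2% downward in A549, and 13.5% and 13.1% in HCC827, so the HCC827 share was close to the background. ABCC1 (MRP1), a basolateral exporter of glutathione conjugates and many anticancer drugs, had 9320.2 normalized counts in A549-myr-AKT1 and 7436 in A549-vector, and 2910.5 with myr-AKT1 and 1139 with vector in HCC827. The HCC827 difference was the wider one. The log2 fold change was 0.33 (0.28 to 0.37) in A549 and 1.35 (1.26 to 1.45) in HCC827.

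ABCC2 had 22731 normalized counts in A549-myr-AKT1 and 27015 in A549-vector, and 3332 and 6227 in the HCC827 libraries. It was lower with myr-AKT1 in both, at -0.25 (-0.28 to -0.22) and -0.90 (-0.97 to -0.84) on the log2 scale. ABCC3 had 40611 against 18219.8 normalized counts in A549 and 6732 against 7062 in HCC827. Its log2 fold change was 1.16 (1.13 to 1.18) in A549 and -0.07 (-0.12 to -0.02) in HCC827, where scaling by total reads turned the sign (0.01). ABCC1 and ABCC2 thus differed in direction within each line.

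ABCC4 (MRP4), an exporter of cyclic nucleotides and nucleoside analogues, had 7648 against 6338 normalized counts in A549 and 3187 against 2059.9 in HCC827, for log2 fold changes of 0.27 (0.22 to 0.32) and 0.63 (0.55 to 0.71). ABCC5 (MRP5), also a nucleotide exporter, had 928 against 961 in A549 and 1151 against 1118 in HCC827, and the intervals of both log2 fold changes included 0 (-0.18 to 0.08 and -0.08 to 0.16). ABCC10 (MRP7), an exporter of taxanes, had 392 against 282 in A549 and 395 against 430 in HCC827, at 0.47 (0.25 to 0.70) and -0.12 (-0.33 to 0.08). ABCC4 was higher in both lines beyond its counting interval, and ABCC10 in A549.

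ABCC6, mutated in pseudoxanthoma elasticum and needed for hepatic ATP release, had 847 normalized counts in A549-myr-AKT1 and 236 in A549-vector, against 198 and 201 in HCC827. Its log2 fold change was 1.85 (1.64 to 2.05) in A549 and -0.03 (-0.32 to 0.27) in HCC827. The gene lies 6.31 kb from ABCC1 on chromosome 16, which differed far less in A549. Its near copies ABCC6P1 and ABCC6P2 held 111 and 93 reads in A549-myr-AKT1 and 39 and 55 in A549-vector, so a part of the reads of this group may be shared among them. ABCC11 (MRP8), an exporter known from earwax type, had 27.5 against 6.99 normalized counts in A549 and 2.52 against 8.74 in HCC827, and was measured only in A549, at 1.98 (0.77 to 3.34) from 24 and 8 reads. Its neighbour ABCC12 had 18 reads in A549-myr-AKT1 and 0 in the other libraries, under the filter.

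ABCG2 (BCRP), an exporter of topoisomerase inhibitors and urate and a marker of side-population cells, had 3359.8 normalized counts in A549-myr-AKT1 and 1740.4 in A549-vector, and 181 with myr-AKT1 and 256 with vector in HCC827. It was higher with myr-AKT1 in A549 and lower in HCC827. The log2 fold changes were 0.95 (0.87 to 1.03) and -0.50 (-0.79 to -0.21). With size factors over all 4 libraries the A549 value was 1.05 and passed the threshold. ABCG1 had 760.4 against 338 normalized counts in A549, at 1.17 (0.99 to 1.35), and 0 and 1 reads in HCC827.

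Over the 11 drug efflux members, 10 were measured in A549, with 3 past 1 upward (ABCC3, ABCC6 and ABCC11), none past 1 downward and a median log2 fold change of 0.40. In HCC827, 9 were measured, with ABCC1 past 1 upward and ABCB1 past 1 downward and a median of -0.07. Over all genes the shares were 14.7% and 10.2% in A549 and 13.5% and 13.1% in HCC827, so the shares in HCC827 did not exceed the background. The summed level of the list was 345 RPKM in A549-myr-AKT1 against 253 in A549-vector, and 99.3 against 98.6 in HCC827. These sums rest on a few abundant members that did not move together. In A549, ABCC3 was at 146 RPKM with myr-AKT1 against 64.7 with vector, and ABCC2 at 101 against 118. In HCC827, ABCC1 was at 16.2 against 6.01 and ABCC2 at 20.7 against 36.6.

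**Figure D3:**
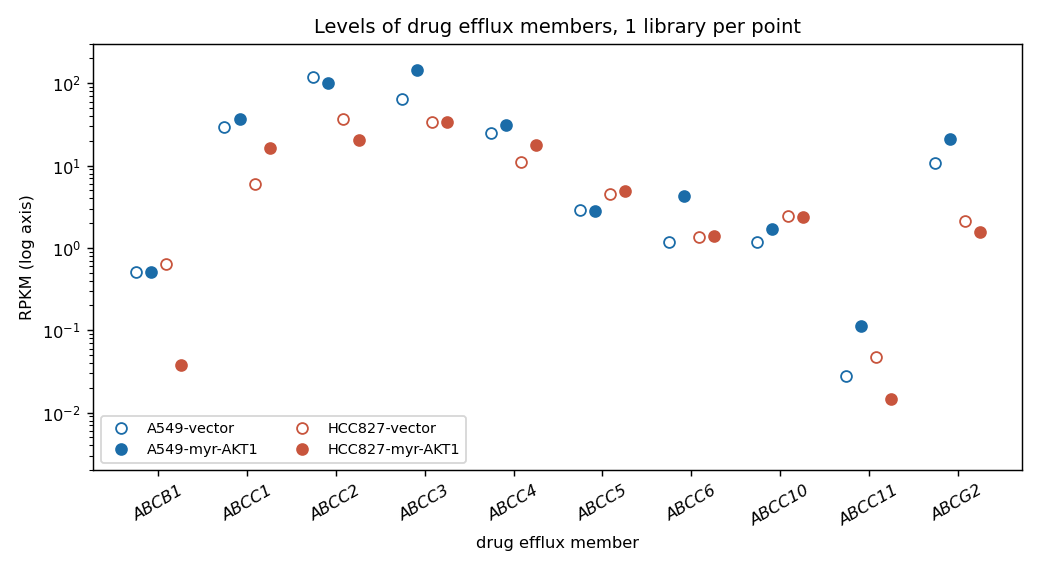
RPKM (log axis) of the drug efflux members in each library, with A549 in blue and HCC827 in red, open circles for vector and filled circles for myr-AKT1, 1 library per point; ABCC12, at 0 reads in 3 libraries, is not drawn. ABCB1 in HCC827-myr-AKT1 drops to 0.0382 RPKM, and ABCC3 in A549-myr-AKT1 is the highest value, at 146.

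Among the members that act outside membrane transport, ABCF2 passed 1 downward in A549 and ABCE1 in HCC827. ABCE1, which recycles ribosomes after termination, had 3773 normalized counts in A549-myr-AKT1 against 7327 in A549-vector, and 1515 in HCC827-myr-AKT1 against 4032 in HCC827-vector. In RPKM, both myr-AKT1 libraries (20.9 in A549 and 11.8 in HCC827) were below both vector libraries (40.0 and 29.7). This gave log2 fold changes of -0.96 (-1.02 to -0.90) in A549 and -1.41 (-1.504 to -1.32) in HCC827. ABCF2, a cytosolic ATPase of the family that acts on ribosomes, had 731 against 1539.6 normalized counts in A549 and 741 against 1219 in HCC827, at -1.08 (-1.21 to -0.94) and -0.72 (-0.86 to -0.58). It shares 37.1% of its exon bases with the read-through gene ABCF2-H2BK1, which had at most 9 reads. ABCF1, which binds eIF2, was at -0.43 (-0.52 to -0.34) and -0.15 (-0.24 to -0.06), and the intervals of ABCF3 included 0 in both lines.

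Within the ABCD subfamily the differences named here were small. ABCD3, the abundant peroxisomal importer of branched-chain and dicarboxylic acids, was at -0.11 (-0.18 to -0.03) in A549 and -0.35 (-0.42 to -0.28) in HCC827. ABCD4, a lysosomal member needed for vitamin B12 release, was at 0.10 and 0.08, and both intervals included 0.

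Between the lines, 29 members were measured in both. Those past 1 upward in both were ABCA4, ABCA7 and ABCB4, 3 of 29, where 4.4% of all genes measured in both were so called. None was past 1 downward in both, where the background was 4.16%. The counting intervals lay above 0 in both lines for 10 members and below 0 in both for 7. The share of all genes on the same side in both lines was not computed, so these counts have no background to be read against. Within a single line, 32.9% of all genes tested lay above 0 in A549 and 32.9% in HCC827, and 36.6% and 37.4% below. The counting intervals lay on opposite sides of 0 for 4, ABCA12, ABCB9, ABCC3 and ABCG2, a share close to the 14.6% of all genes measured in both.

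**Figure D4:**
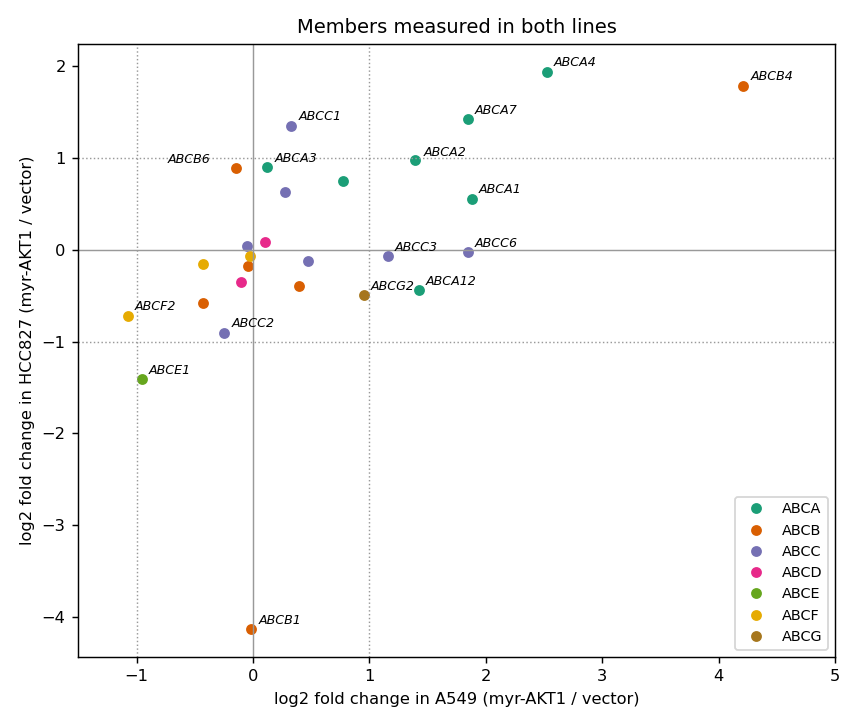
Log2 fold change (myr-AKT1 over vector) in A549 on the horizontal axis and in HCC827 on the vertical axis, 1 point per member shown, each measured in both lines, coloured by subfamily, with dotted lines at 1 and -1. ABCA4, ABCA7 and ABCB4 lie past 1 on both axes, and ABCB1 lies near 0 in A549 and at -4.13 in HCC827.

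The only replication in the design is the pair of cell lines, so limma was fitted over both lines to log2(normalized count + 1). The line was a block, which leaves 1 residual degree of freedom. The lines are not replicate cultures. Each p-value sets the mean difference over these particular lines against a variance that limma draws in part from all genes. It therefore depends on the size of the difference as well as on how alike the lines were. Of 37 members in the fit, ABCA7 was the one called higher at a Benjamini-Hochberg adjusted p under 0.05 and none was called lower, against backgrounds of 1.29% and 1.73% of the 19314 genes tested. ABCA7 rose by 1.63 (SE 0.295) on the log2 scale in this fit, in 2 of 2 lines, with a limma adjusted p of 0.0326. Over the alternatives the adjusted p of ABCA7 ran from 0.000123 to 1, and the call was lost with a pseudocount of 0.5, with scaling by TMM over all libraries and without the block. ABCE1 was next, at -1.18 with a limma adjusted p of 0.0518 (0.000761 to 1 over the alternatives), followed by ABCA2 at 1.18 with 0.0685. At an unadjusted p under 0.05, 8 members were higher and 2 lower in limma, against 9.17% and 9.24% of all genes. DESeq2 called 1 member lower after adjustment and edgeR none, where they called 518 and 228 of the 19314 genes lower.

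Promoter windows from RefSeq were found for 35 of the 45 members. The 35116 windows cover 27305 genes, so a gene can have several starts. For each member only the window nearest its outermost GENCODE start was used. The 250 bases before that start were searched on both strands, and other starts of a member were not searched. The LXR-type repeat AGGTNANNNNNGGTCA was present in 0.0797% of all 35116 windows and, among members, in ABCA1 alone. The E-box CACGTG was in 6 of 35 members and 6.34% of all windows. The core of the antioxidant response element, TGACNNNGC, was in 7 members (ABCA2, ABCA3, ABCB6, ABCC4, ABCC10, ABCD4 and ABCF1) and 10.9% of all windows. The FOXO core GTAAACA was in 3 members (ABCA6, ABCE1 and ABCF1) and 2.98% of windows, and the SP1 box GGGGCGGGG in 4 and 15.1%. The STAT core TTCNNNGAA was in 1 (ABCC5) and 6.57%, and the CRE TGACGTCA in 1 (ABCE1) and 1.65%. A match describes the letters of a window and does not show binding. The median number of CpG dinucleotides was 21 in the windows of the members over 1 RPKM in every library and 3 in those at or under 1 RPKM in every library. The full 250-base windows of ABCA13 and ABCB1 held 2 and 1 CpG, and those of ABCA1, ABCA7 and ABCF2 held 16, 25 and 26. The stretches shown above for ABCA7 and ABCB1 are shorter than their windows, at 140 and 222 bases.

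Regulators known for ABC genes were taken as a list of 23 transcription factors and partners. In the fit, 2 of the 21 measured were higher and none lower, against 1.29% and 1.73% of all genes. PPARA, a receptor for fatty acids, had 1284 against 331 normalized counts in A549 and 1807 against 621 in HCC827 (limma log2 fold change 1.75, adjusted p = 0.0265). NR1H4 (FXR), the bile acid receptor, had 973 against 102 in A549 and 39.0 against 2.38 in HCC827, the last from 3 reads (limma log2 fold change 3.40, adjusted p = 0.0271). The LXR genes NR1H3 and NR1H2 differed less, at 0.46 and 0.15 for NR1H3 and 0.09 and 0.73 for NR1H2 in A549 and HCC827. NR1I2 and NR1I3, the xenobiotic receptors PXR and CAR, had 0 reads in all 4 libraries. YBX1, known as a regulator of ABCB1, was at -0.94 and -0.68.

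LXR target genes formed a list of 11 that includes ABCA1 and ABCG1. Of these, 4 were past 1 upward in A549 (ABCA1, ABCG1, APOE and SCD) and none downward, against 14.7% and 10.2% of all genes. In HCC827, of 9 measured, APOE was past 1 upward and SMPDL3A downward, against 13.5% and 13.1%. In the fit, APOE, the lipoprotein ligand loaded with lipid by ABC exporters, was the 1 called, with 409.96 against 87.3 normalized counts in A549 and 248 against 50.9 in HCC827 (limma log2 fold change 2.24, adjusted p = 0.0421). SCD, a fatty acid desaturase, was at 1.09 and 0.59.

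Among ABC proteins whose symbols do not begin with ABC, TAP1, which moves peptides into the endoplasmic reticulum for antigen presentation, had 1056 against 654 normalized counts in A549 and 1049 against 359 in HCC827, at 0.69 (0.55 to 0.83) and 1.55 (1.38 to 1.72). Its partner TAP2 was at -0.08 and -0.09, and both intervals included 0. CFTR, the chloride channel, had at most 17 reads in any library.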

How the data were processed

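RNA of 4 cultures was sequenced by the authors. The sources differ on RNA selection: the labels name rRNA depletion and a stranded kit, the methods poly(A) selection. The submitters' processing notes name Bowtie2, HTSeq and hg38. The deposited values are a signal, reads divided by 1 size factor per library that the authors set within each line's pair. The methods call them RPKM, but within a library the values are whole multiples of the lowest value above 0 (tolerance 0.001 reads), in all but 1 value of each vector library. Reads were recovered from these steps, and normalized counts are the deposited values. No separate cultures per condition are described, so n = 1 library per condition and line.

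Identifiers were matched to GENCODE v44, with 60261 of 60558 found. RPKM was computed here from recovered reads and union exon length. Within a line, ratios have 95% Clopper-Pearson intervals, a minimum of 20 reads per pair and a floor of 3 reads. The fit used limma 3.58.1 in R 4.3.3 (trend, line as block, pseudocount 1, filterByExpr, Benjamini-Hochberg over 19314 genes), with edgeR 4.0.16 (quasi-likelihood, TMM) and DESeq2 1.42.0 on recovered reads as alternatives, checked on simulated data. Other tools were Python 3.11.15, pandas 2.3.3 and scipy 1.17.1.

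Values in all libraries are given for drug efflux members, members past a log2 fold change of 1 with at least 100 reads and an interval without 0, members called in the fit, and members with opposite intervals. The remaining genes named (ABCA3, ABCA4, ABCA5, ABCB6, ABCB8, ABCB10, ABCD3, ABCD4, ABCF1, ABCF3 and list genes) fill out their subfamily or list and were picked after their values were seen. The counts cover all 45 members, but 2 members are not reported by name or drawn here. Members and lists were chosen with earlier results of these data known.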

Additional observations from a re-analysis of the deposited data

Results flagged for a closer look

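In 4 members the counting interval of the log2 fold change lay on opposite sides of 0 in A549 and HCC827, 4 of the 29 measured in both, close to the 14.6% of all genes. With 1 library per condition in each line, these differences between lines were not tested. ABCA12 was at 1.42 in A549 and -0.44 in HCC827. ABCG2 was at 0.95 in A549 and -0.50 in HCC827. ABCC3 was at 1.16 in A549 and -0.069 in HCC827. ABCB9 was at 0.39 in A549 and -0.39 in HCC827. The signs held for ABCA12, ABCG2 and ABCB9 under the 3 other scalings run, and for ABCC3 under all but scaling by total reads.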

How the results depend on the processing

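Another scaling shifts every log2 fold change of a line by one amount, at most 0.10 in A549 (size factors over all 4 libraries) and 0.08 in HCC827 (total reads). The 13 members higher in A549 numbered 10 to 14 under the other scalings, filters and pseudocount, and 3 at a log2 fold change of 2. The 1 member lower in A549, ABCF2, became 0 with size factors over all 4 libraries and at a log2 fold change of 2. In HCC827, the 5 higher members became 3 with at least 100 reads and 1 at a log2 fold change of 2. They became 6 with scaling by total reads, with size factors over all 4 libraries and with at least 1 read in each library. The 2 lower became 1 at a log2 fold change of 2 and 3 with at least 1 read in each library. In the fit, the 1 member called higher of 37 became 2 by DESeq2, and 7 of 43 with genes of at least 1 read in any library. The number was 0 with a pseudocount of 0.5, with TMM over all 4 libraries or without the line as a block. The 0 called lower became 1 by DESeq2 and 2 with genes of at least 1 read in any library, and edgeR gave 1 higher and 0 lower. Over all genes, the main fit called 250 higher and 335 lower of 19314, DESeq2 621 and 518, and edgeR 196 and 228. With genes of at least 1 read in any library, 1101 were higher and 894 lower of 33056. A pseudocount of 0.5 gave 112 and 191, TMM over all 4 libraries 42 and 96, and no block 0 and 0. The cause of these changes was not tested. ABCC3 in HCC827 was 0.011 with scaling by total reads and -0.07 as deposited. Of the other values of single drug efflux members, 67 stayed within their counting interval and 8 moved past it. Including ABCC3, 7 of 76 such values changed sign, for ABCB1 (-0.02, to at most 0.09) and ABCC5 (-0.05, to 0.05) in A549 and ABCC6 (-0.03, to at most 0.05) in HCC827, all near 0. The fit pairs the libraries by line, with 1 residual degree of freedom, and no pairing exists within a line. Low reads limit several members, such as ABCB1 with 4 reads in HCC827-myr-AKT1 and ABCA13 with 5 in HCC827-vector.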

Other observations

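Genes on either side of efflux in drug handling were also read. Of 19 solute carriers of drug uptake, 15 were measured in A549, with 6 past a log2 fold change of 1 upward and 1 downward (backgrounds 14.7% and 10.2%), and 12 in HCC827, with 1 upward and 5 downward (backgrounds 13.5% and 13.1%). SLCO2B1, an organic anion carrier, had 496 reads in A549-myr-AKT1 against 37 in A549-vector, a log2 fold change of 4.14 (3.65 to 4.66), and 6 against 1 in HCC827. SLC15A2, a peptide carrier, was higher in both lines, at 2.75 (2.40 to 3.11) and 1.08 (0.75 to 1.41). SLC19A1, the reduced folate and methotrexate carrier, was lower in both, at -1.41 (-1.66 to -1.16) and -1.38 (-1.80 to -0.98). SLCO4A1, a thyroid hormone carrier, was at -0.53 (-0.76 to -0.30) in A549 and -2.14 (-2.23 to -2.05) in HCC827. No carrier of the list was called in the fit over both lines by limma.

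Of 21 enzymes of drug conjugation, which make substrates of ABCC exporters, 19 were measured in A549, with 9 past 1 upward and none downward. In HCC827, 15 were measured, with 6 upward and none downward. The backgrounds were the same as for the carriers. A gene could enter these counts through the 1 library in which it was high. GSTA1 and SULT1E1 (113 and 0 reads) did so in A549-myr-AKT1, and UGT1A6 (30 and 1) in HCC827-myr-AKT1. These counts therefore do not show a rise of the list as a whole. GSTA1, a glutathione transferase, had 396 reads in A549-myr-AKT1 and 0 in A549-vector, and UGT1A1, the bilirubin glucuronosyltransferase, had 318 and 50. GSTM3 was higher in both lines, at 1.18 (0.94 to 1.42) and 1.36 (1.12 to 1.60), as was SULT2B1, a sterol sulfotransferase, at 1.51 (1.34 to 1.68) and 1.45 (1.07 to 1.85). GSTP1, the most read glutathione transferase of the list, was at -0.57 (-0.60 to -0.53) in A549 and 0.74 (0.70 to 0.77) in HCC827. None of the list was called in the limma fit. Members of the UGT1A locus share exons, so reads of UGT1A1 may be split with its neighbours.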
